A study of Mus musculus with 24 samples.

Results

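Gene expression in the atrioventricular (AV) node of the mouse heart at embryonic stage E17.5, late in gestation, was compared with that in working myocardium at E10.5, on 12 of the study's 24 arrays. The 12 arrays were chosen by their labels of tissue and stage, 6 of AV node and 6 of early working myocardium, and none was chosen by a measured value. The comparison asked how far the formed node resembles early embryonic heart muscle. The AV node cells came from Tbx3BAC-Egfp mice, in which a bacterial artificial chromosome with the Tbx3 gene drives green fluorescent protein. The working cells came from NppaBAC336-Egfp mice, whose reporter is driven in the same way by Nppa, so each group holds those cells in which its reporter was active. All embryos had developed normally, no other treatment or allele is named in the labels, and the age of each animal is its embryonic stage. For each sample, fluorescent heart tissue was pooled and dissociated, 5000 cells were sorted, and their RNA went through 2 rounds of linear amplification before hybridisation to 1 Illumina mouse BeadChip. The other 12 arrays, 6 of AV canal at E10.5 from the Tbx3 reporter mice and 6 of working myocardium at E17.5 from the Nppa reporter mice, served only to place the node among the 4 groups. Tissue, stage and reporter line all differ between the 2 groups compared, the labels name no slide common to both, and these influences cannot be told apart in this comparison.

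The AV node delays the impulse between the atria and the ventricles. It forms from AV canal myocardium, which conducts slowly, as does the muscle of the early heart tube, whereas chamber muscle acquires fast conduction, abundant gap junctions, natriuretic peptides and well developed sarcomeres. In mouse, the T-box factors Tbx2 and Tbx3 repress chamber genes in the AV canal and the conduction system. The members described below are therefore ordered from conduction genes through chamber genes and shared cardiac transcription factors to contractile, metabolic and cell cycle genes, and then to genes of other cell types.

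Levels are given as normalized log2 intensity, and a difference of 1 on this scale is a 2-fold difference. Differences are always AV node at E17.5 minus working myocardium at E10.5, called "node" and "early working". A probe was called when its adjusted p in limma was under 0.05. A probe counted as above background where its raw intensity lay over 3 SDs above the mode of the array's intensities, the SD being that of the values below the mode. Median raw intensity per array was 112 to 133 on the early working arrays and 54.9 to 60.5 on the node arrays, and the share of probes above background was 36.7% to 40.7% and 36.4% to 40.1%. Arrays of the node correlated with each other across probes with r between 0.983 and 0.991, early working arrays with r between 0.987 and 0.995, and arrays of different groups with r between 0.889 and 0.924, where probes are not independent replicates. Within each group some arrays stood apart in cell type markers. Summed over the 20 sarcomere genes listed, normalized intensity was 38128 to 48012 on node replicates 1 to 3 and 106860 to 168560 on node replicates 4 to 6. Early working replicates 5 and 6 were the lowest of their group for fibroblast and cushion, endothelial, epicardial and blood genes. Where the fold of a called gene described below moved by over 1.5 times with these arrays, its value without them is given. In such bulk samples, fewer cells of a type and less RNA per cell cannot be told apart.

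The groups differed widely. Of 46632 probes, 6975 (15%) were higher and 8104 (17.4%) lower in the node, together 32.3% of those tested with limma. Of these, 2222 rose and 2389 fell by 2-fold or more, 9.89% of all probes. The ranges of the groups' arrays did not overlap for 10452 probes (22.4%). Taking for each of 17711 named genes its brightest probe, 21.6% of genes were higher and 23.9% lower in the node, and the median log2 difference over all genes was 0.0025. All 6 node arrays were above background and all 6 early working arrays at background for 447 probes, and the reverse held for 495. With the probes tested against a 2-fold difference rather than against 0, limma's treat called 2695.

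Among probes above background on all 12 arrays, a large part nevertheless kept a similar level. Of 12704 probes above background on all 12 arrays, 7926 (62.4%) were close, meaning that the 95% confidence interval of the difference lay within 2-fold in either direction. Of these close probes 4006 were also called, so a small difference was measured for them. Of the 12704 probes 8683 were called, a larger share than the 32.3% of all probes. Among genes above background on all 12 arrays, 4587 of 7688 (59.7%) were close by their brightest probe. Genes below background on any of these arrays are left out of these shares. With all 24 arrays normalized together, the share of close probes was 62.45% here, the lowest of any pair of groups. It was 73.8% between the node and E17.5 working myocardium and 67.1% between the node and the AV canal. Between E17.5 working myocardium and the AV canal it was 71.3%, between the 2 working groups 75.2%, and between the early groups 88.3%.

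The genes of the AV node and the conduction system did not move in 1 direction. Of the 19 measured genes on this list, 5 were higher and 7 lower in the node, against 21.6% and 23.9% of all genes, and the list's median log2 difference was -0.08. Those shares over all genes apply beside every list count below, but they include genes without signal. On this list 14 of 19 genes were above background on every array of a group, against 9587 of all 17711 genes. Tbx3, the T-box repressor whose regulatory DNA drove the sorting, and the T-type calcium channel gene Cacna1g were higher in the node. Cacna1h, a second T-type channel gene, was lower, and so was Ryr2, the calcium release channel of the sarcoplasmic reticulum. Hcn4, the main pacemaker channel gene, was at background on all 12 arrays by its only probe.

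Tbx3 ranged from 10.84 to 11.69 (median 11.41) on the node arrays and from 9.09 to 10.001 (median 9.58) on the early working arrays. Every node array was above every early working array, by 1.77 ± 0.17 (SE, limma adjusted p = 1.63e-06), a direction not independent of the Tbx3 reporter on which the node cells were sorted. Tbx3 was thus not absent from the early working cells, where all 6 arrays were above background. Tbx2, its paralogue in the AV canal, ranged from 7.95 to 8.33 (median 8.03) on the node arrays and from 7.18 to 7.62 (median 7.38) on the early working arrays. Its difference of 0.69 ± 0.08 was called (limma adjusted p = 1.51e-05) but lay within 2-fold.

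Cacna1g had the largest rise of the list. Its level ran from 10.44 to 11.15 (median 10.79) on the node arrays and from 6.44 to 6.89 (median 6.68) on the early working arrays. Every node array lay above every early working array, of which 4 were above background, and the difference was 4.12 ± 0.11 (limma adjusted p = 1.72e-11), with all 4 probes of the gene higher. Cacna1h ran the opposite way, from 8.09 to 9.14 (median 8.32) on the node arrays and from 11.63 to 11.95 (median 11.84) on the early working arrays, so that the ranges did not meet (difference -3.33, SE 0.15, limma adjusted p = 1.26e-09). Cacna2d2, an accessory calcium channel subunit, differed by -2.40 (SE 0.34, limma adjusted p = 6.76e-05). On node replicates 1 to 3 alone that difference was -3.22, and on replicates 4 to 6 alone -1.64, against the same 6 early arrays.

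Ryr2 ranged from 7.48 to 9.99 (median 9.10) on the node arrays and from 12.79 to 13.12 (median 12.95) on the early working arrays. The groups were well separated, with a difference of -4.12 ± 0.36 (limma adjusted p = 5.84e-07), or -4.95 with node replicates 1 to 3 alone and -3.41 with replicates 4 to 6 alone. Gjc1, which encodes the low-conductance connexin 45, was lower by a smaller step (-0.84 ± 0.09, limma adjusted p = 3.4e-06). Shox2, a transcription factor of the sinoatrial region, differed by -1.32 ± 0.26 (limma adjusted p = 0.00117), with overlap between the groups, and lost its call when all 24 arrays were normalized and fitted together (limma adjusted p = 0.0597). Smoc2, a secreted calcium-binding matrix protein, was higher by 1.57 ± 0.24 (limma adjusted p = 0.000144), although early working arrays were above background on 4 of 6. The brightest probe of Id2, a transcriptional inhibitor active in the conduction system, was higher by 0.83 ± 0.19 (limma adjusted p = 0.00347), and its other probe was lower by a similar step (-0.79 ± 0.15, limma adjusted p = 0.00067), so Id2 has no settled direction, and the call on its brightest probe was lost with median scaling. Isl1, a progenitor and pacemaker transcription factor, was -0.90 ± 0.33 (limma adjusted p = 0.0548), just short of the threshold, and was called without early working replicate 5 (-0.999) or node replicate 4 (-1.21). Msx2 was close, at 6.92 ± 0.16 in the node and 6.91 ± 0.10 in early working cells (SD, n = 6 each). Bmp2, Hcn2 and Kcnip2 were, like Hcn4, at background on all 12 arrays, which says only that these probes gave no measurable signal.

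**Figure D1:**
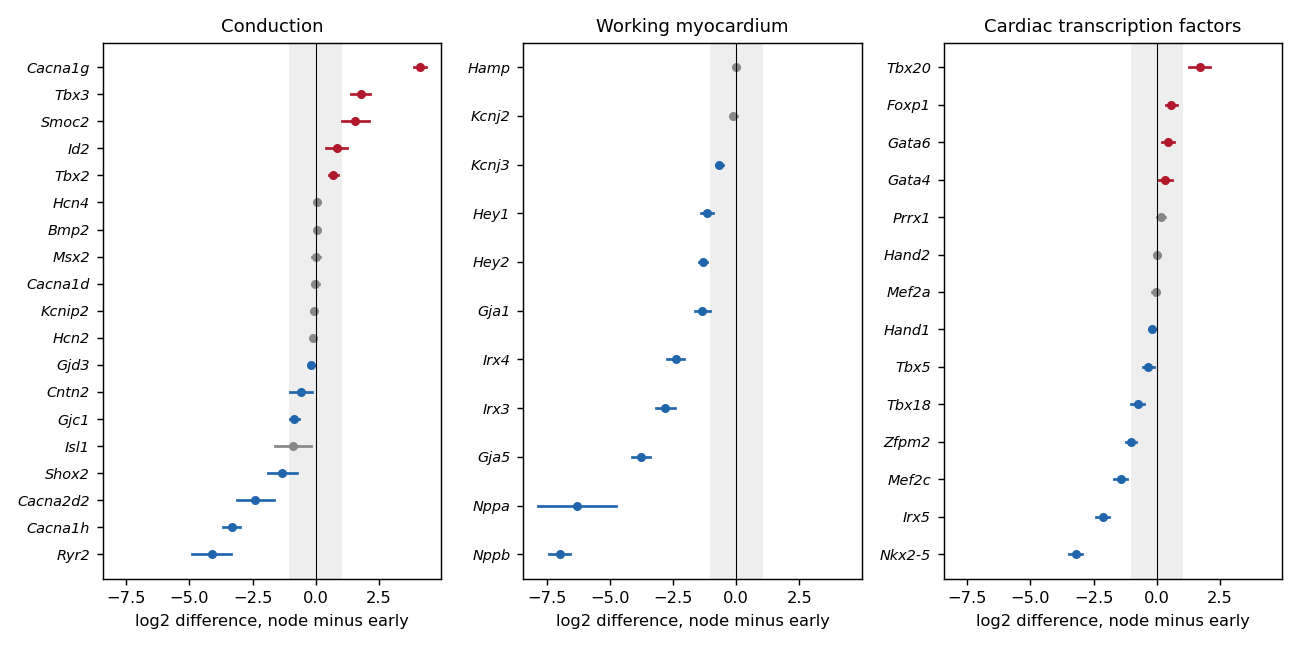
Log2 difference, AV node at E17.5 minus working myocardium at E10.5, with its 95% confidence interval from limma for each measured gene of the conduction, working myocardium and cardiac transcription factor lists (n = 6 arrays per group). Red points are called higher in the node, blue ones lower and grey ones not called; the grey band is a difference within 2-fold. Cacna1g at 4.12 is the highest point and Nppb at -6.99 the lowest.

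Genes of working chamber muscle were lower in the node. Of 11 measured genes on this list, 9 were lower, 0 were higher and 8 fell by at least 2-fold in limma, with a list median of -1.34. Nppb and Nppa, the natriuretic peptide genes that mark chamber muscle, had the largest falls of all named genes. The fast-conducting connexin genes Gja5 and Gja1, encoding connexin 40 and connexin 43, were lower too. Since cells of the early working group were sorted on an Nppa reporter, the direction of Nppa is not independent of the sort. Nppb is the neighbouring gene, and whether its direction is independent of the sort was not tested.

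Nppb and Nppa lie next to each other on mouse chromosome 4, and their upstream DNA is shown because they had the largest falls of all named genes. The sequences are the 250 bases before the RefSeq start site on the GRCm38.p6 assembly, 5′ to 3′ on the gene's strand, at chr4:147985650-147985899 for Nppb and chr4:148000472-148000721 for Nppa, both on the plus strand. Capitals mark every match, on either strand, to 4 short motifs: TCACACC for T-box factors, present in 3.33% of 32817 mouse promoter windows of this length, AAGTGG for NKX factors (14.1%), AGATAA for factors of the GATA family (9.99%) and GGAATG, the M-CAT element (12.6%).
Nppb: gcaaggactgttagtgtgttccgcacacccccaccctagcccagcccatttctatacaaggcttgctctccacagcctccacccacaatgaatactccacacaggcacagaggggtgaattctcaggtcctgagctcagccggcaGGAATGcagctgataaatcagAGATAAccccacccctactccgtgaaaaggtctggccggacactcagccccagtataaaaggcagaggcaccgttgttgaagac
Nppa: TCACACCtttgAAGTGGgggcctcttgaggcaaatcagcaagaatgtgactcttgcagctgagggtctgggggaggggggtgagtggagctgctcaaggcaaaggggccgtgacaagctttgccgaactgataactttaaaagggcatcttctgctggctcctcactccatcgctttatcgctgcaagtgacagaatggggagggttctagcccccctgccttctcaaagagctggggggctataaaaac
In the Nppa window the T-box letters occupy positions -250 to -244 before the start site and the NKX letters positions -239 to -234. In the Nppb window the M-CAT letters lie at -105 to -100 and the GATA letters at -84 to -79. A match is a description of letters and was not tested as a binding site.

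Nppb ran from 6.12 to 7.25 (median 6.47) on the node arrays and from 13.28 to 13.82 (median 13.66) on the early working arrays. It was above background on 3 of 6 node arrays, and its difference was -6.99 ± 0.20 (limma adjusted p = 1.99e-11). Nppa was highly uneven within the node. Node replicates 1 to 3 read 7.01, 6.92 and 6.72, whereas replicates 4 to 6 read 9.90, 9.13 and 11.40, against 14.46 to 15.10 (median 14.83) in early working cells. All 12 arrays kept the groups apart, and the difference was -6.30 ± 0.71 (limma adjusted p = 7.15e-06). It was -8.04 with node replicates 1 to 3 alone, -4.73 with replicates 4 to 6 alone and -6.89 without node replicate 6.

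Gja5 fell to the edge of detection. Its range was from 6.32 to 7.01 (median 6.46) on the node arrays and from 9.78 to 10.65 (median 10.43) on the early working arrays, with 2 of 6 node arrays above background (difference -3.77 ± 0.16, limma adjusted p = 7.17e-10). Gja1 remained well expressed in the node, from 11.74 to 12.70 (median 12.16) on the node arrays and from 13.07 to 13.70 (median 13.56) on the early working arrays, and its difference was -1.34 ± 0.14 (limma adjusted p = 4.36e-06). Irx3 and Irx4, Iroquois transcription factors of the ventricular wall and its conduction system, differed by -2.81 ± 0.17 and -2.40 ± 0.15 (limma adjusted p = 2.1e-08 and 2.69e-08). Hey1 and Hey2, Notch-regulated repressors that help bound the AV canal, differed by -1.15 ± 0.11 and -1.32 ± 0.07 (limma adjusted p = 2e-06 and 8.45e-09). Irx3, Irx4 and Hey2 were above background on 2, 1 and 1 of 6 node arrays, while Hey1 was on all 6. Smpx was not analysed here.

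Transcription factors shared by heart muscle moved in both directions. Of 14 measured genes 4 were higher and 7 lower, against 21.6% and 23.9% of all genes, and the median was -0.12. Of the 14, 6 were close. Hand1, Hand2, Irx5 and Nkx2-5 could not be, since they were not above background on all 12 arrays. Over all genes that were, 59.7% were close. Prrx1 was among the 6 close genes by its brightest probe (0.17 ± 0.07, limma adjusted p = 0.0929), but its other probes were higher. They differed by 0.98, 1.28 and 1.89 (limma adjusted p = 1.5e-07, 2.7e-08 and 1.5e-10) and were at background on all 6 early working arrays. Tbx5, at 12.35 to 13.03 (median 12.93) in the node and 13.00 to 13.38 (median 13.17) in early working cells, was close, with a difference of -0.34 ± 0.11 (limma adjusted p = 0.0272). Gata4 and Gata6 were close as well, at 0.34 ± 0.12 and 0.44 ± 0.11 (limma adjusted p = 0.0371 and 0.00549), and Mef2a was at -0.05 ± 0.06 (limma adjusted p = 0.67). Gata4 and Gata6 changed sign when arrays were scaled to a common median, so their direction is not settled. The call on Gata4 was lost when any of 8 of the 12 arrays was left out, at adjusted p of 0.0518 to 0.0849 in limma, and that on Tbx5 without early working replicate 1 or 6 or node replicate 6 (limma adjusted p = 0.0659, 0.0508 and 0.0506). When all 24 arrays were fitted together Gata4, Gata6 and Tbx5 all lost their calls, and another probe of Tbx5 was not called (-0.03 ± 0.07, limma adjusted p = 0.826).

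Nkx2-5, the homeobox factor at the centre of the cardiac programme, differed far more. Its level ran from 6.52 to 7.27 (median 6.78) on the node arrays and from 9.79 to 10.19 (median 10.09) on the early working arrays. No arrays overlapped, 5 of 6 node arrays were above background, and the difference was -3.22 ± 0.12 (limma adjusted p = 2.97e-10). Mef2c, which activates muscle genes, and Irx5, an Iroquois factor, differed by -1.43 ± 0.12 and -2.14 ± 0.12 (limma adjusted p = 4.28e-07 and 7.83e-09). Zfpm2, a GATA cofactor, was at -1.02 ± 0.09 (limma adjusted p = 7.94e-07). Tbx20, a T-box factor of myocardium and cushions, ran the other way, from 10.47 to 11.22 (median 10.80) on the node arrays and from 8.64 to 9.72 (median 9.04) on the early working arrays, a difference of 1.70 ± 0.20 (limma adjusted p = 9.73e-06), while another probe at 1.47 ± 0.58 was not called (limma adjusted p = 0.0751). Foxp1, a forkhead repressor, was higher within 2-fold (0.57 ± 0.10, limma adjusted p = 0.000378), lost its call with median scaling (limma adjusted p = 0.778) and was not called by its other probe (0.02 ± 0.04, limma adjusted p = 0.831). Rxra was not analysed here.

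Contractile genes were lower in the node almost throughout. Of 20 measured sarcomere genes, 16 were lower, each by at least 2-fold, 1 was higher and 3 were not called by limma, and the list median was -2.78. Acta1 and Tnni1, skeletal isoforms present in embryonic heart, the cardiac genes Actc1, Myh6, Mybpc3 and Ttn, and the ventricular light chain gene Myl2 all fell. Tnni2, the fast skeletal troponin I gene, was not on the list but was among the 10 largest falls.

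Acta1, skeletal alpha-actin, ranged from 6.49 to 10.18 (median 8.79) on the node arrays and from 14.04 to 14.35 (median 14.26) on the early working arrays. The groups lay far apart, although node replicate 3 stood alone at 6.49 and was not above background (difference -5.44 ± 0.48, limma adjusted p = 7.26e-07). Acta1 differed by -6.44 with node replicates 1 to 3 alone and by -4.61 with the other 3. Tnni1, the slow skeletal troponin I of embryonic heart muscle, ran from 8.03 to 10.21 (median 9.72) on the node arrays and from 13.01 to 14.23 (median 13.94) on the early working arrays, a difference of -4.20 ± 0.35 (limma adjusted p = 3.49e-07). Tnni2 was at 6.95 ± 0.69 in the node and 12.80 ± 0.11 in early working cells (SD, n = 6), a difference of -5.85 ± 0.25 (limma adjusted p = 8.8e-10). Both isoforms were thus higher in early working cells on every array.

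Actc1, the cardiac alpha-actin gene, differed by -2.85 ± 0.27 (limma adjusted p = 1.61e-06), Myh6, encoding alpha myosin heavy chain, by -3.82 ± 0.25 (limma adjusted p = 4.25e-08), and Mybpc3, encoding cardiac myosin-binding protein C, by -3.86 ± 0.46 (limma adjusted p = 1.26e-05). With node replicates 1 to 3 alone Mybpc3 differed by -5.06 and Actc1 by -3.44, and with the other 3 Mybpc3 differed by -2.77. For Ttn, the gene of the giant spring protein titin, the node arrays split: the first 3 replicates read 9.75, 9.75 and 9.21, the other 3 read 12.24, 12.22 and 12.86, against 13.59 to 14.20 in early working cells. Its difference was -4.27 with the first 3 node arrays and -1.39 with the other 3. Myl2 showed the same split, at 12.32, 11.45 and 12.26 against 13.58, 14.55 and 13.85, with an overall difference of -1.92 ± 0.43 (limma adjusted p = 0.00287), -2.88 with the first 3 and -0.94 with the other 3. Myl2 was at 9.55 ± 0.66 (SD, n = 6) in working myocardium at E17.5 after normalization of all 24 arrays, below both other groups.

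By their brightest probes, Tnnt2, cardiac troponin T, Myl4, the atrial essential light chain, and Tpm1, alpha-tropomyosin, were not called, at -0.64 ± 0.27, -0.81 ± 0.34 and 1.11 ± 0.46 (limma adjusted p = 0.0947, 0.0944 and 0.0862). The other probe of Myl4 was lower by a larger step (-3.09 ± 0.21, limma adjusted p = 4.91e-08). On node replicates 1 to 3 alone all 3 passed the threshold, Tnnt2 lower at -1.26, Myl4 lower at -1.62 and Tpm1 higher at 1.76. Tnnt2 and Myl4 were also called lower without node replicate 5 (-0.81 and -0.98) or node replicate 6 (-0.77 and -1.01). Myom2, a protein of the M-band, was the higher gene, from 7.52 to 11.16 (median 9.29) on the node arrays and from 6.48 to 6.83 (median 6.52) on the early working arrays, a difference of 2.63 ± 0.52 (limma adjusted p = 0.00119), 1.56 with the first 3 node arrays and 3.82 with the other 3. The sarcomere count was 16 lower and 1 higher with node replicates 4 to 6 alone, with a median of -1.72, and 18 lower and 2 higher with replicates 1 to 3 alone, with a median of -3.59. The part of the arrays' differing make-up in these values was not tested.

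**Figure D2:**
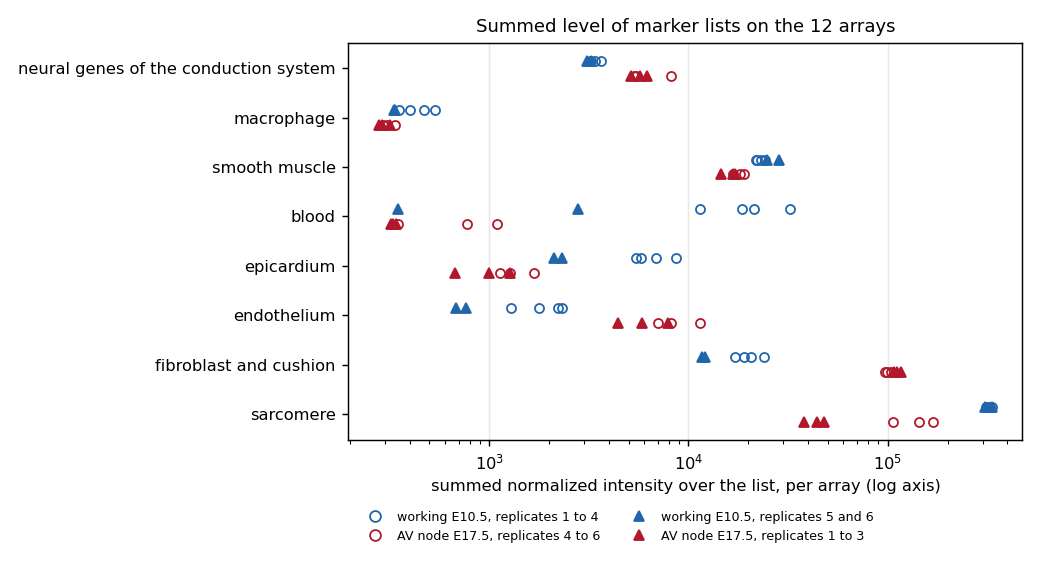
Summed normalized intensity of each marker list on each of the 12 arrays, on a log axis; blue symbols are working myocardium at E10.5 and red ones AV node at E17.5, and filled triangles are the arrays that stood apart. Sarcomere genes were at 38128 to 168560 in the node and 309330 to 333820 in early working cells, fibroblast and cushion genes at 96617 to 116770 and 11656 to 23950.

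Calcium handling followed the same direction. Of 10 measured genes, 6 were lower, each at least 2-fold, and 1 was higher, Calr, which was at background on all 12 arrays and lost its call without any of 11 of them. Pln, encoding phospholamban, the inhibitor of the sarcoplasmic calcium pump, ran from 8.16 to 10.93 (median 9.37) on the node arrays and from 12.99 to 13.38 (median 13.21) on the early working arrays, a difference of -3.77 ± 0.38 (limma adjusted p = 2.35e-06), -4.68 with node replicates 1 to 3 alone and -2.97 with the other 3. The pump gene itself, Atp2a2, differed by -2.04 ± 0.28 (limma adjusted p = 4.56e-05), and Jph2, which joins the surface membrane to the sarcoplasmic reticulum, by -2.55 ± 0.15 (limma adjusted p = 1.79e-08). No array of 1 group reached the range of the other for these 3 genes, and Atp2a2 differed by -2.63 with node replicates 1 to 3 alone and by -1.40 with the other 3. Casq2, the calcium-binding protein of the reticulum, was not called (0.89 ± 0.40, limma adjusted p = 0.122), with node replicates 4 to 6 at 9.50, 10.39 and 9.75 and replicates 1 to 3 at 8.13, 7.87 and 7.91. Casq2 was called higher on replicates 4 to 6 alone, by 1.85, and without node replicate 2, by 1.1. The brightest probe of Slc8a1, the sodium-calcium exchanger, differed by -2.65 ± 0.10 (limma adjusted p = 2.35e-10), but another of its 4 probes was higher in the node by 2.55 ± 0.17 (limma adjusted p = 5.3e-08). Trdn was not analysed here.

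Genes of energy metabolism were mostly lower in the node. All 13 measured glycolysis genes were lower in limma, 10 of them at least 2-fold, with a median of -1.64 and no change in this count under any scaling tried. Slc2a1, the basal glucose transporter, fell most, from 8.82 to 10.06 (median 9.31) on the node arrays and from 12.86 to 13.23 (median 13.15) on the early working arrays (difference -3.70 ± 0.17, limma adjusted p = 1.77e-09). Every node array lay below every early working array. Hk2, hexokinase 2, which traps glucose in the cell, differed by -2.70 ± 0.26, and Aldoa, aldolase A, by -2.36 ± 0.17 (limma adjusted p = 1.93e-06 and 8.64e-08), with Hk2 at -3.32 on node replicates 1 to 3 alone. Ldha, lactate dehydrogenase A, was at -1.63 ± 0.10 and Gapdh at -0.88 ± 0.05 (limma adjusted p = 1.22e-08 and 1.81e-08). Gapdh stayed within 2-fold by this probe, its brightest, but another differed by -1.68 ± 0.08 (limma adjusted p = 2.1e-09). Gpi1, Pgam1 and Eno1 were not analysed here.

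For oxidative phosphorylation, 12 of 17 measured genes were lower and 1 was higher, with a median of -1.02. Of the lower genes, Sdha was at background on all 12 arrays. Cox5a, a subunit of cytochrome c oxidase, was at 10.47 ± 0.24 in the node and 13.84 ± 0.12 in early working cells (SD, n = 6; difference -3.38 ± 0.10, limma adjusted p = 3.62e-11). Cox4i1, another subunit, and Atp5b, the catalytic subunit of ATP synthase, were close and not called, at -0.12 ± 0.07 and 0.21 ± 0.09 (limma adjusted p = 0.209 and 0.0796). Cox4i1 passed the threshold without early working replicate 1 (-0.17) and Atp5b without early working replicate 6 (0.28). Ppargc1a, the coactivator of mitochondrial genes, differed by -1.58 ± 0.17 (limma adjusted p = 3.8e-06). The higher gene was Ckm, muscle creatine kinase, which is on the list but encodes no part of the respiratory chain (1.81 ± 0.52, limma adjusted p = 0.0147). It read 7.65, 8.67 and 7.94 on the first 3 node replicates and 9.49, 10.77 and 10.96 on the other 3. Its difference was 0.68 with the first 3 and 2.99 with the other 3. Ckm lost its call with early working replicates 1 to 3 or 4 to 6 alone, at an adjusted p of 0.138 and 0.0829, and without early working replicates 5 and 6 at 0.0601.

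Fatty acid use had 8 of 14 measured genes lower and 2 higher, with a median of -0.92. Cpt1b, which admits fatty acids to mitochondria of muscle, ran from 7.04 to 8.43 (median 7.86) on the node arrays and from 10.86 to 11.11 (median 10.97) on the early working arrays, with no overlap (difference -3.15 ± 0.22, limma adjusted p = 6.86e-08), or -3.75 with node replicates 1 to 3 alone. Fabp3, the fatty acid binding protein of heart, was lower with a wider spread among the node arrays (-1.91 ± 0.48, limma adjusted p = 0.00718). Fabp3 differed by -3.12 with node replicates 1 to 3 alone and by -0.74 with the other 3, and its call was lost with early working replicates 1 to 3 or 4 to 6 alone (limma adjusted p = 0.077 and 0.0676). The higher genes were Acadvl, which oxidises very long chains, and the transporter Slc27a1, at 0.61 ± 0.06 and 0.53 ± 0.12 (limma adjusted p = 1.34e-06 and 0.00264). Both were close, and with median scaling Acadvl changed sign and Slc27a1 lost its call.

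Cell cycle genes were mostly lower in the node, by modest steps. Of 20 measured genes 14 were lower and 2 higher, against 23.9% and 21.6% of all genes, with a median of -0.90. Of the 20, 7 were close. Ccna2, Ccnb2 and Cdkn1b could not be, since they were not above background on all 12 arrays. Rrm2, the ribonucleotide reductase subunit of S phase, ranged from 8.54 to 9.41 (median 9.10) on the node arrays and from 11.55 to 11.85 (median 11.71) on the early working arrays (difference -2.64 ± 0.12, limma adjusted p = 1.32e-09). Ccna2, cyclin A2, differed by -2.05 ± 0.11, with 2 of 6 node arrays above background, and Pcna, the DNA polymerase clamp, by -1.74 ± 0.15 (limma adjusted p = 6.57e-09 and 5.6e-07). Cdk1, the mitotic kinase, was at -1.10 ± 0.10 and Top2a, topoisomerase II alpha, at -0.65 ± 0.07 (limma adjusted p = 1.35e-06 and 7.51e-06), though another probe of Top2a was not called (-0.02 ± 0.17, limma adjusted p = 0.949). The inhibitor Cdkn1c, which restrains the cycle, was also lower (-1.49 ± 0.11, limma adjusted p = 1.44e-07), while Cdkn1a was not called (0.18 ± 0.12, limma adjusted p = 0.34) except without node replicate 2 (0.29), and its other probe was higher (0.39 ± 0.10, limma adjusted p = 0.00624). Ccnd1, cyclin D1, was higher by its brightest probe (1.12 ± 0.11, limma adjusted p = 2.47e-06) and lower by 3 of its 5 probes, so its direction is not settled, and the first call was lost with median scaling. Bub1, a spindle checkpoint kinase, was the other higher gene, at 0.13 ± 0.05 (limma adjusted p = 0.0489), a call lost without any of 8 of the 12 arrays. Mki67, Ccnb1 and Mcm3 were not analysed here.

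**Figure D3:**
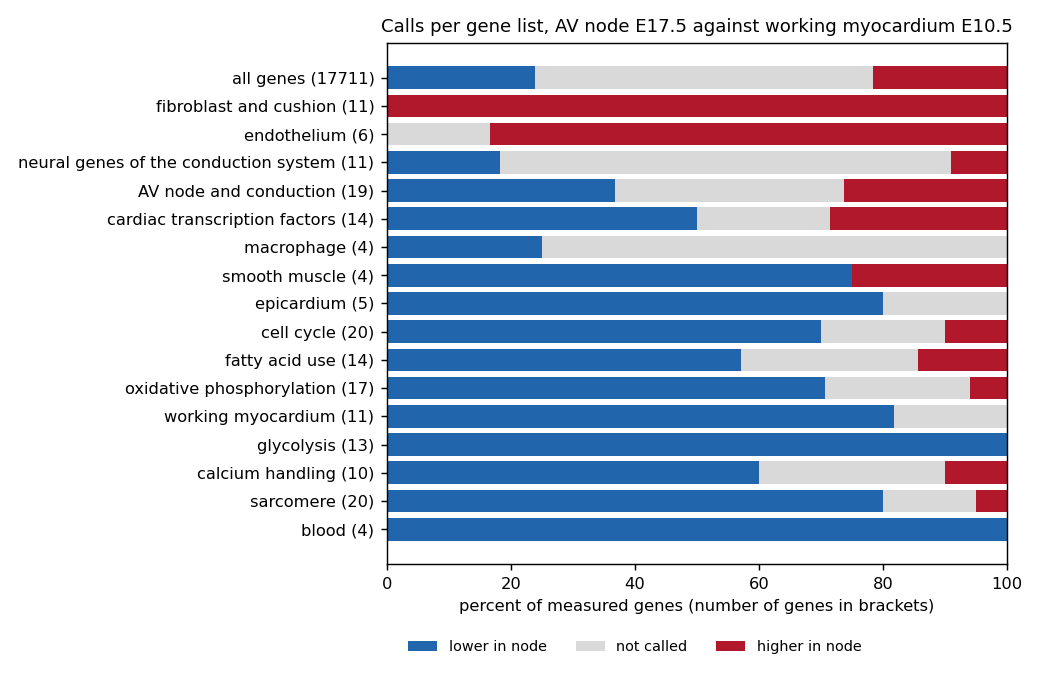
Share of the measured genes of each list called lower (blue), not called (grey) and called higher (red) in the AV node at E17.5 against working myocardium at E10.5, by limma with n = 6 arrays per group; the number of genes is in brackets. All 13 glycolysis genes were lower and all 11 fibroblast and cushion genes higher, against 23.9% lower and 21.6% higher over all genes.

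In order of size, the 10 largest rises were in Prelp, Ltbp2, Mgp, Eln, Nfix, Scara3, Thbs2, Bgn, Dpt and Ltbp4. Prelp and Bgn encode small leucine-rich proteoglycans, Ltbp2 and Ltbp4 encode proteins that bind microfibrils or latent TGF-beta, Eln encodes elastin, and Mgp, Thbs2 and Dpt encode matrix Gla protein, thrombospondin 2 and dermatopontin. Nfix encodes a transcription factor and Scara3 a scavenger receptor family member. The upstream DNA of the largest 2 rises, from the same source and with the same marking as above, lies at chr1:133921402-133921651 for Prelp and chr12:84876492-84876741 for Ltbp2, both on the minus strand. Neither window held any of the 4 motifs.
Prelp: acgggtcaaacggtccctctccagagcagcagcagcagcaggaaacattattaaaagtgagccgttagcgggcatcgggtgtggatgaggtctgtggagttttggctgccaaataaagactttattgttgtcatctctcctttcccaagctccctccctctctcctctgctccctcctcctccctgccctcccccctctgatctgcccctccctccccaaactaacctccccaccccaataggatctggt
Ltbp2: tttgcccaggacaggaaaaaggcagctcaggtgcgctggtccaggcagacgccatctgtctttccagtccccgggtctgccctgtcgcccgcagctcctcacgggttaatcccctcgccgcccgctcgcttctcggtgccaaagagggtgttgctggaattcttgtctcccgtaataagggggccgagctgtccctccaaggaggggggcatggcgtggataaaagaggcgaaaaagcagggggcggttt
Of the 20 genes with the largest rise or fall, 15 had an upstream window, and the T-box letters occurred in 2 of them, the NKX letters in 1, the GATA letters in 3 and the M-CAT letters in 3.

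Prelp was at 14.26 to 14.62 (median 14.47) on the node arrays and at background on all 6 early working arrays, so it was at least 239.8-fold higher (limma adjusted p = 3.39e-16). This bound sets the node mean against the lowest level above background on each early array. Ltbp2 ran from 14.16 to 14.54 (median 14.38) on the node arrays and from 6.20 to 7.21 (median 6.84) on the early working arrays, a difference of 7.65 ± 0.17 (limma adjusted p = 2.66e-12). Mgp, which restrains calcification of matrix, was at 14.05 ± 0.19 in the node and 6.71 ± 0.27 in early working cells (SD, n = 6), and Eln was at 13.63 ± 0.18 and 6.78 ± 0.30. Both had 4 of 6 early working arrays above background, and their differences were 7.34 ± 0.12 and 6.86 ± 0.13 (limma adjusted p = 3.33e-13 and 7.5e-13). The other 6 rises lay between 6.29 and 6.82, and none of their arrays overlapped between groups.

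**Figure D4:**
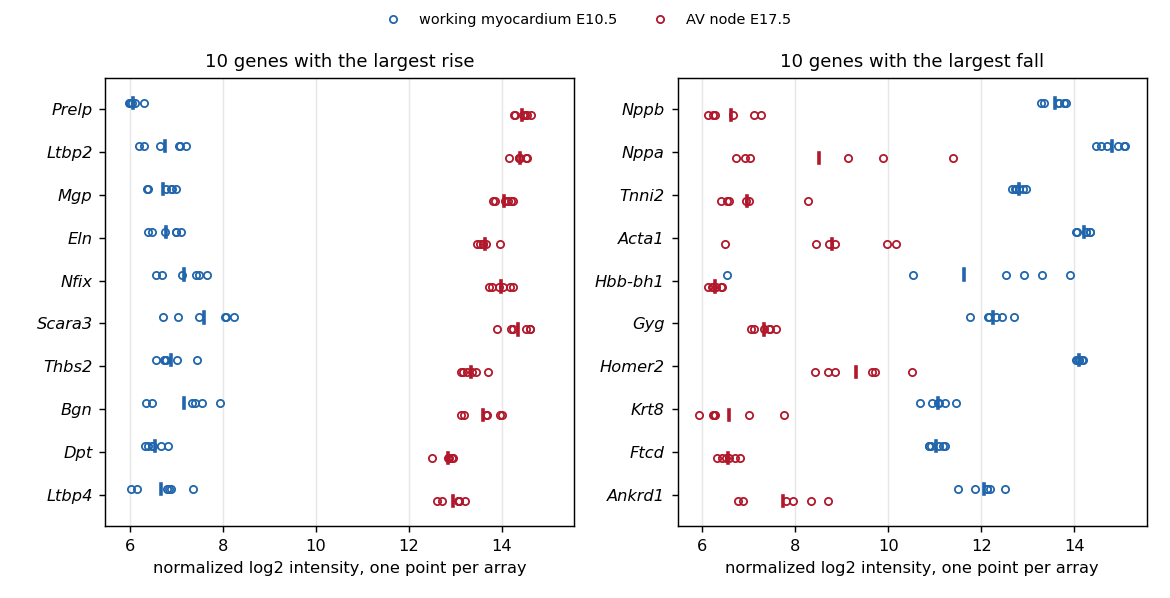
Normalized log2 intensity of the 10 genes with the largest rise and the 10 with the largest fall on each of the 12 arrays; open circles are arrays and short vertical bars group means (n = 6). Blue is working myocardium at E10.5 and red AV node at E17.5. Prelp lies at 14.26 to 14.62 in the node, and Nppa spreads from 6.72 to 11.40 there.

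Of the falls not yet described, Gyg, the glycogenin primer of glycogen synthesis, ran from 7.05 to 7.58 (median 7.37) on the node arrays and from 11.75 to 12.70 (median 12.24) on the early working arrays, a difference of -4.93 ± 0.14 (limma adjusted p = 2.5e-11). Homer2, a scaffold protein, differed by -4.80 ± 0.28 (limma adjusted p = 1.46e-08), or -5.52 with node replicates 1 to 3 alone. Krt8, an intermediate filament gene, was above background on 2 of 6 node arrays (-4.50 ± 0.27, limma adjusted p = 1.41e-08). Ankrd1, a stress-responsive partner of titin, ran from 6.77 to 8.71 (median 7.87) on the node arrays and from 11.51 to 12.51 (median 12.12) on the early working arrays, a difference of -4.32 ± 0.31 (limma adjusted p = 9.1e-08), or -5.03 with node replicates 1 to 3 alone. Ftcd, an enzyme of histidine and folate metabolism, differed by -4.48 ± 0.09 by its brightest probe (limma adjusted p = 1.75e-12), while its other probe was higher in the node (1.01 ± 0.13, limma adjusted p = 3.01e-05).

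All 11 measured fibroblast and cushion genes were higher in the node in limma, 10 of them at least 2-fold, with a median of 3.55. Their summed normalized intensity was 96617 to 116770 on the node arrays and 11656 to 23950 on the early working arrays, while the sarcomere sum ran the other way. Sox9, a transcription factor of cushion mesenchyme and cartilage, ran from 14.63 to 14.81 (median 14.70) on the node arrays and from 8.49 to 11.51 (median 10.74) on the early working arrays, with early working replicates 5 and 6 at 8.49 and 8.51. Its difference was 4.49 ± 0.50 (limma adjusted p = 6.98e-06), and 3.57 without those arrays. Dcn, the proteoglycan decorin, was evenly high in the node, 14.71 to 14.93, and ranged widely in early working cells, 7.24 to 12.09 (difference 4.39 ± 0.72, limma adjusted p = 0.00025). Without early working replicates 5 and 6 it was 3.10, and without replicate 5 alone 3.73.

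Of the fibrillar collagens, Col3a1 differed by 4.41 ± 0.35 and Col1a2 by 3.83 ± 0.27 (limma adjusted p = 2.67e-07 and 7.71e-08), or 4.42 for Col1a2 with node replicates 1 to 3 alone. Col1a1 was at background on all 6 early working arrays and at least 6.23-fold higher in the node (limma adjusted p = 2.19e-09). Postn, periostin, a product of valve and fibrous tissue, was likewise at background there and at least 7.09-fold higher (limma adjusted p = 3.36e-08). Lum, the proteoglycan lumican, differed by 4.42 ± 0.20, and Pdgfra, a receptor of mesenchymal cells, by 3.55 ± 0.39 (limma adjusted p = 1.3e-09 and 5.94e-06), or 2.88 for Pdgfra without early working replicates 5 and 6. Another probe of Pdgfra was not called (0.11 ± 0.04, limma adjusted p = 0.0823). Twist1, a mesenchymal transcription factor, was at 2.36 ± 0.23 and Vim, vimentin, at 1.42 ± 0.08 (limma adjusted p = 2.28e-06 and 9.64e-09). Fn1, fibronectin, had the smallest step (0.78 ± 0.19, limma adjusted p = 0.00475) and lost its call with median scaling, and another probe was not called (0.02 ± 0.20, limma adjusted p = 0.968). These markers differed between the same groups as every list described above, and their part in those results was not tested.

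Markers of other cells moved as well. Of 6 endothelial genes 5 were higher, with sums of 4443 to 11407 in the node and 676 to 2312 in early working cells. Pecam1, an adhesion molecule of endothelium, ran from 10.76 to 12.62 (median 11.71) on the node arrays and from 6.59 to 9.46 (median 8.61) on the early working arrays (difference 3.41 ± 0.49, limma adjusted p = 7.19e-05; 2.69 without early working replicates 5 and 6). Nfatc1, a transcription factor of endocardium and valves, differed by 2.82 ± 0.17 (limma adjusted p = 1.97e-08), and Kdr, a VEGF receptor, was not called (0.10 ± 0.07, limma adjusted p = 0.289). Of 5 epicardial genes 4 were lower, of which Tcf21 was at background on all 12 arrays. Wt1, an epicardial transcription factor, differed by -1.74 ± 0.32 (limma adjusted p = 0.000665), and Upk3b, a mesothelial uroplakin, by -3.98 ± 0.64 (limma adjusted p = 0.000209) or -5.03 without those 2 arrays.

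Globin genes were lower in the node. Hbb-bh1, an embryonic beta-like globin gene, was 12.92, 13.31, 12.54 and 13.92 on early working replicates 1 to 4 and 6.54 and 10.53 on replicates 5 and 6. It was at background on all 6 node arrays and at least 34.0-fold lower there (limma adjusted p = 0.000707). Its fitted difference, which is no bound, was -5.35, -6.34 without early working replicate 5 and -6.83 without replicates 5 and 6. Hba-x, an embryonic alpha-like globin gene, was at background on all 6 node arrays and above it on 5 of 6 early working arrays, with a fitted difference of -4.90, -5.84 without early working replicate 5 and -6.42 without replicates 5 and 6. All 4 measured blood genes were called lower in the node, but the call on Hba-a1 was lost when any of 8 of the 12 arrays was left out. Hba-a1 differed by -2.66 ± 0.94 (limma adjusted p = 0.046), -3.41 without early working replicate 5 and -3.96 without replicates 5 and 6. Its difference was -3.64 with node replicates 1 to 3 alone, and with the other 3 it was -1.80 and no longer called (limma adjusted p = 0.326). The summed blood level still overlapped between groups, since early working replicate 5 was at 349 and the node arrays at 320 to 1096. Of 4 macrophage genes 1 was lower, Lyz2, and their sums were 279 to 335 in the node and 333 to 533 in early working cells. None of the 4 was above background on every array of either group. C1qa, Lyz2 and Ptprc were at background on all 6 node arrays, so the node sums lie near background. Smooth muscle genes were 3 lower and 1 higher of 4, with Acta2 at -0.50 ± 0.07 by its brightest probe (limma adjusted p = 0.000107) and at -3.55 ± 0.16 and -3.86 ± 0.14 by its next probes (limma adjusted p = 1.31e-09 and 2.03e-10), and the higher gene, Myh11, lost its call without any of 7 of the 12 arrays. Of 11 measured neural genes 1 was higher and 2 lower, against 21.6% and 23.9% of all genes. Ncam1, the neural cell adhesion molecule, ran from 11.78 to 12.62 (median 11.93) on the node arrays and from 8.54 to 9.62 (median 9.22) on the early working arrays, a difference of 2.89 ± 0.18 with all 4 probes higher (limma adjusted p = 2.04e-08), while Uchl1, a ubiquitin hydrolase of neurons, was lower (-1.22 ± 0.12, limma adjusted p = 2.4e-06).

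Set among all 4 groups, the node was farther from early working myocardium than from either other group. As a distance, the squared log2 differences between group means were averaged over all probes, the share due to array-to-array spread was subtracted and the root taken (RMS), with an SE from leaving out 1 array at a time. It was 0.680 (SE 0.0163) between the node and early working cells, 0.521 (SE 0.0265) between the node and working myocardium of the same stage, and 0.529 (SE 0.0103) between the node and the AV canal. The distance to E17.5 working cells minus the distance to early working cells was -0.160 (SE 0.0273), and the same difference for the AV canal was -0.151 (SE 0.0164), each several times its SE. Each of the 6 node arrays was nearer to the mean of the E17.5 working arrays and nearer to the mean of the AV canal arrays than to the early working mean, and 3 of 6 were nearer to the canal than to E17.5 working cells. The smallest distance, 0.288 (SE 0.0275), was between the early groups. The node shares its reporter line with the AV canal and its stage with E17.5 working cells, but neither with early working cells. The part of this in the order of the distances was not tested. For the other pair that differs in both, E17.5 working cells and the AV canal, the distance was 0.472 (SE 0.0135). These distances share arrays, and stage cannot be told apart from hybridisation in them. The working group at E17.5 was also lower in Myl2, the ventricular light chain gene, than the early one. Whether both working groups drew on the same parts of the chambers was not tested, which limits the distances and the stage components below.

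The difference was then split, in a fit of all 24 arrays, into a stage component (E17.5 minus E10.5, the mean of both tissues) and a tissue component (AV minus working, the mean of both stages), which add up to node minus early working. In that fit 35.2% of all probes were called for the stage component and 22% for the tissue component, and 21% between the node and working myocardium of the same stage. The stage component was the larger for 66.8% of the 15083 calls on this normalization and the tissue component for 33.2%. The arrays that chose these calls also enter both components, so the 2 shares are a description only. For Tbx3 the components opposed each other, at -1.28 ± 0.19 for stage and 3.06 ± 0.19 for tissue. For Gja5 the tissue component was -4.01 ± 0.15 and the stage component 0.24 ± 0.15, and for Nppb they were -5.29 ± 0.18 and -1.71 ± 0.18. Cacna1g divided evenly, 2.06 ± 0.18 for tissue and 2.07 ± 0.18 for stage.

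For Mgp and Thbs2 stage prevailed, at 5.94 ± 0.14 and 5.59 ± 0.16, against tissue components of 1.40 ± 0.14 and 0.88 ± 0.16. Sox9 and Twist1 had larger tissue components, 3.47 ± 0.29 and 3.07 ± 0.15. For several muscle genes the components had opposite signs. Casq2 combined a stage component of 3.19 ± 0.25 with a tissue component of -2.31 ± 0.25, and its mean level in the 24-array normalization was 12.45 in E17.5 working myocardium against 8.94 in the node. Cox8b, a subunit of cytochrome c oxidase found in striated muscle, was at 8.33 ± 1.13 in the node, 8.21 ± 0.30 in early working cells and 12.12 ± 0.32 in E17.5 working cells, the last on the 24-array normalization (SD, n = 6 each). Its node minus early working difference was -0.83 with node replicates 1 to 3 alone and 1.03 with the other 3. On that normalization Myom2 and Ckm reached 13.86 and 13.97 in E17.5 working myocardium, against 9.22 and 9.27 in the node.

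**Figure D5:**
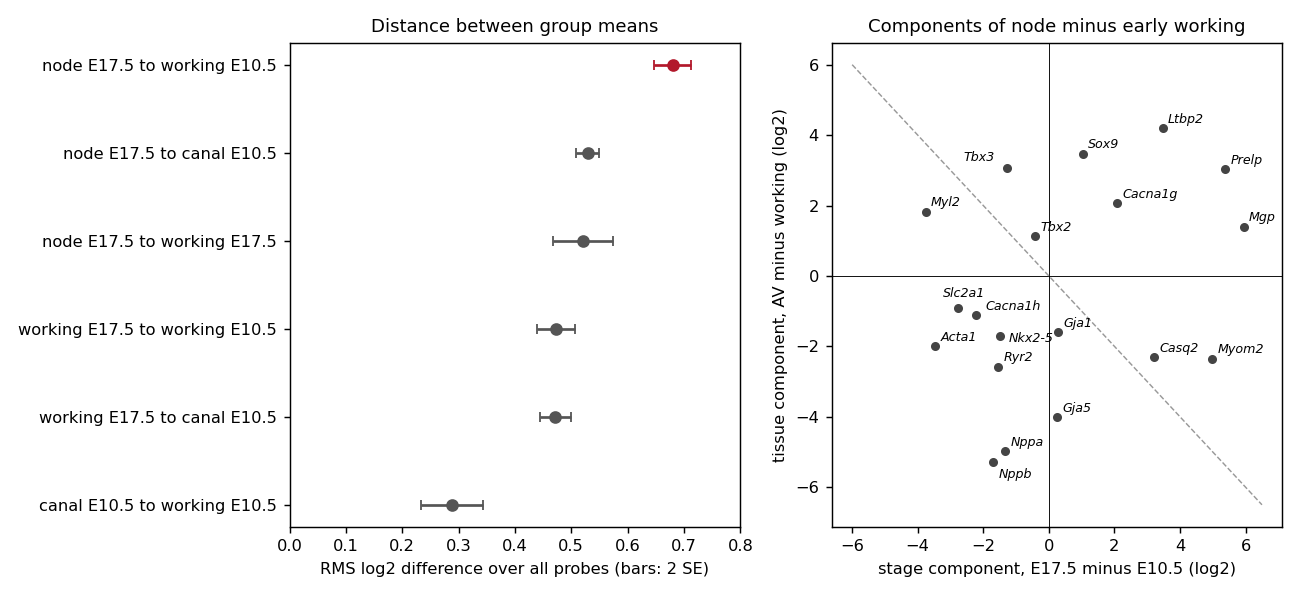
Left, RMS log2 difference over all probes between each pair of the 4 group means (n = 6 arrays per group), with bars of 2 jackknife SEs; the red point, node to early working, is the largest at 0.680. Right, stage and tissue components of the node minus early working difference for 19 genes described in the text; on the dashed line the components cancel, and Casq2 lies near it (3.19 and -2.31).

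A comparison that shares no array with this one, E17.5 working myocardium minus E10.5 AV canal, crosses tissue and stage the other way round. Of the 6975 probes higher in the node, 2047 were also higher in that comparison, 29.4% of the first list and 41.9% of the 4888 higher there. Of the 8104 lower in the node, 3227 were also lower, 39.8% of the first list and 56.8% of the 5681 lower there. Calls in opposite directions numbered 818, 11.7% of those higher in the node, and 1130, 13.9% of those lower. In all, 35.0% of the node's calls were shared in direction, 12.9% were opposite and 52.1% were not called there. Over the whole array, 4888 of 46632 probes were higher in that comparison and 5681 lower, together 22.7%. The shares by direction were not tested against these. Slc2a1 was lower in that comparison too (-1.86, limma adjusted p = 6.75e-06), as were Rrm2 (-1.46, limma adjusted p = 0.000435) and Acta1 (-1.46, limma adjusted p = 0.000447). Tbx3 (-4.33, limma adjusted p = 1.59e-06) and Gja5 (4.26, limma adjusted p = 2.2e-07) ran opposite to the node comparison.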

How the data were processed

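The labels describe 24 samples of sorted fluorescent cells on Illumina Mouse-Ref-6 v1.1 BeadChips, 6 per group, of which 12 were compared here. The authors deposited a table of linear intensity values per probe, without detection p-values or control probes, and a second table of log2 values. The deposited log2 values followed the intensities in rank, and how else the authors made them is not stated in these sources. Limma is the tool named, with no version, per the submitters' processing notes.

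Of 46667 rows, 46632 probes remained after identical rows were removed and rows of 1 identifier averaged. The intensities were background-corrected with normexp (offset 50), taken to log2, quantile-normalized between the 12 arrays, and tested per probe with limma 3.58.1 in R 4.3.3 (lmFit and eBayes), with Benjamini-Hochberg adjustment over all probes and a threshold of 0.05. Platform annotation gave 1 gene symbol to 29976 probes, several to 10 and none to 16646, and RefSeq matched 29921 of the former. For each gene the probe brightest over the 12 arrays was used. Of 201 genes on 16 lists, 181 were measured. Genes named are the 10 largest rises and 10 largest falls without overlap between groups, plus list members, and the members and lists were chosen with earlier results of these data known.

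Same-numbered node and early working arrays deviated together with correlations between -0.0756 and 0.124, of which 1 of 6 exceeded 0.1, so the numbers do not pair the samples. The labels call the samples biological replicates. The sample descriptions at E10.5 carry a code that was read here as a slide (1 for replicates 1 to 3, 2 for replicates 4 to 6), although no label says what the code marks. Descriptions at E17.5 carry none, so it cannot be fitted with group. Precision is limited by the number of arrays. The test was checked on simulated data in which 200 of 46632 probes were changed: it recovered 74.63% of changes of 0.5 log2, 95.52% of changes of 1 and 100% of changes of 2, with 16 false calls. The changed probes were brighter than the median and rose and fell in equal number. Spread between arrays was drawn independently, at the size seen in the early working arrays only. In the real data 32.3% of probes were called and the node arrays split, so these rates do not carry over to this comparison. Alternatives covered background correction, scaling, filtering, variance estimates, slides, single arrays and the authors' values.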

Additional observations from a re-analysis of the deposited data

Results flagged for a closer look

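In 15 of 286 groups of 6 arrays examined, 1 array lay apart from the others by Dixon's criterion at the 95% level, where chance gives about 1 in 20, or 14.3 groups. Of node arrays, replicate 3 was low for Tnni1 (8.03, mean of the others 9.80) and replicate 6 high for Tnni2 (8.28, others 6.69). Replicate 6 was also high for the summed intensity of the working myocardium list (10625, others 5919), and replicate 4 for the summed neural list (8188, others 5565). Replicate 1 was low for Dpt (12.49, others 12.90), replicate 2 low for Tbx5 (12.35, others 12.94), replicate 4 high for Gjc1 (10.49, others 10.06) and replicate 5 high for Irx4 (6.92, others 6.03).

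Of early working arrays, replicate 1 was low for Gja1 (13.07, others 13.59) and high for Msx2 (7.10, others 6.87), Myom2 (6.83, others 6.52) and Uchl1 (10.52, others 10.08). Replicate 2 was high for Actc1 (14.93, others 14.66), replicate 3 low for Cox5a (13.61, others 13.89) and replicate 5 low for Ccnd1 (11.06, others 11.51).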

How the results depend on the processing

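The main setting called 15079 probes, 4611 of them at least 2-fold. Median scaling called 26023, with 55.8% higher in the node against 46.3% in the main setting, and limma's treat called 2695 against a 2-fold difference. The authors' values gave 9261 calls of at least 2-fold, or 9281 after quantile normalization. The RMS difference of 0.679 became 0.592 with no background correction, 0.787 with an offset of 16, 0.742 with median scaling, 1.07 over the 18364 probes left by a filter on dim probes, 0.647 with early working replicates 1 to 3 only, those of the code read as slide 1, 0.653 without early working replicates 5 and 6, 0.720 with node replicates 1 to 3 only, and 1.08 with the authors' values as deposited (1.081) or quantile-normalized (1.082). The alternatives with node replicates 1 to 3 or 4 to 6 only were added after seeing the data. The share of calls with the same direction in the comparison without shared arrays, 35.0%, became 60.8% with median scaling, 40.2% with the filter, 36.8% without early working replicates 5 and 6 and 31.5% with the quantile-normalized authors' values. The opposite share, 12.9%, became 6.41%, 16.2% and 10.9% with median scaling, the filter and the quantile-normalized authors' values. The filter tests fewer probes, and otherwise the cause was not tested. Leaving out 1 array gave 14328 to 14826 calls, 4481 to 4727 of at least 2-fold, 7814 to 8108 close probes and an RMS of 0.666 to 0.690. The distance to E17.5 working cells less that to early working cells stayed negative in every setting run, from -0.267 to -0.135, and between -0.167 and -0.141 without 1 array.

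Of 2384 values of 133 genes under 18 settings, 58 lost the call and 39 gained it with the same sign, and 25 changed sign, of which 10 were called in either setting and 15 in neither. Median scaling shifted these genes by a median of -0.54, and under it Cdkn1a was at -0.45, Gata4 at -0.28, Gata6 at -0.29, Prrx1 at -0.14, Kdr at -0.13, Tubb3 at -0.23, Bub1 at -0.024, Atp5b at -0.61 and Acadvl at -0.052. With node replicates 1 to 3 only, Cox8b was at -0.83. Without a single array 45 of 1596 values lost the call, 12 gained it and 8, called in neither setting, changed sign. The replicate number as a block gave 14343 calls, with each array's own number its best match for 2 of 6, and the numbers do not pair the samples. Probes near background have understated differences, and early working and node arrays differed in raw brightness.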

Other observations

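Probes of 1 gene did not always run the same way. Of 7572 genes with several probes, 380 (5.02%) had probes called in opposite directions, and for 12 of 250 genes with several probes of at least 2-fold above background on all 12 arrays the directions opposed. The following genes were chosen after their values were seen. Slc8a1, the sodium-calcium exchanger, had probes at -2.65 and 2.55, Pdlim7, a PDZ and LIM domain protein, at -2.75 and 2.39, Igsf10 at -1.77 and 1.90, and Pde4dip, a phosphodiesterase anchor, at -1.34 and 1.44. Which transcripts these probes detect was not tested.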
